A study of Mus musculus with 44 samples.

Results

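The circadian clock genes are the 10 mouse genes Arntl, Clock, Per1, Per2, Per3, Cry1, Cry2, Nr1d1, Nr1d2 and Dbp, which hold the activators, the repressors and an output of the molecular clock. They were chosen by symbol, with no use of measured values, and all 10 were found among the 54146 genes of the count table and passed the filter on low counts in each comparison. RNA had been sequenced from astrocytes and microglia taken from mice, purified and then grown untreated in media made for the human versions of these cells. Each cell type had 22 libraries: 4 from Apoe KO mice (1 female and 3 male), 6 from APOE44 mice (3 female and 3 male), 6 from APOE33 mice (4 female and 2 male) and 6 from mice with wild-type Apoe (WT, 3 female and 3 male). APOE44 and APOE33 are named for the human APOE4 and APOE3 alleles. The sources used here do not give how the KO and human alleles were made, the age of the mice, the hour of harvest or any step that sets the phase of the cells. The labels do not say that replicates came from separate mice or cultures, and the p-values rest on the spread among libraries, which may be technical. All 12 WT libraries are tagged batch 2 and the other 32 libraries batch 1, while the protocol speaks of a single extraction batch, so against WT, genotype and batch cannot be told apart.

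The clock is a feedback loop of transcription. ARNTL (BMAL1) and CLOCK bind E-boxes and switch on the Per and Cry genes, whose proteins then block that pair, and the nuclear receptors NR1D1 and NR1D2 (REV-ERB alpha and beta) repress Arntl. DBP is an output factor that acts at D-boxes, and in a running clock Arntl peaks when Dbp, Nr1d1 and the Per genes are low. Astrocytes and microglia both carry such a loop, and cultured cells drift out of phase with each other unless something resets them. On GRCm38 (GENCODE M21) the activators lie at chr7:113207465-113314126 (Arntl, plus strand) and chr5:76209868-76304792 (Clock, minus). The Per genes lie at chr11:69095217-69109960 (Per1, plus), chr1:91415982-91459324 (Per2, minus) and chr4:151003652-151044665 (Per3, minus), and the Cry genes at chr10:85131700-85185064 (Cry1, minus) and chr2:92403646-92434043 (Cry2, minus). The receptors lie at chr11:98767932-98775333 (Nr1d1, minus) and chr14:18204054-18239127 (Nr1d2, minus), and Dbp at chr7:45705088-45710203 (plus).

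Total counts ran from 86313947 to 120505499 in microglia and from 83239599 to 143150569 in astrocytes. Levels are given as CPM, the count divided by the library total and scaled per 1e6 counts. Mouse Apoe had 11.2 to 15.3 CPM in KO astrocytes, 22.7 to 34.4 CPM in APOE44 astrocytes, 23.4 to 35.8 CPM in APOE33 astrocytes and 6104 to 7759 CPM in WT astrocytes. In microglia, Apoe had 5.99 to 22.3 CPM in KO, 40.3 to 51.1 CPM in APOE44, 37.6 to 66.7 CPM in APOE33 and 39026 to 50194 CPM in WT libraries, so mouse Apoe was low in every library not labelled WT. The summed level of 10 astrocyte markers was 26.8 to 104 CPM in microglia and 11921 to 18261 CPM in astrocytes, and that of 10 microglia markers was 10933 to 18762 CPM in microglia and 116 to 460 CPM in astrocytes. One astrocyte library, APOE33 replicate 1, carries a WT genotype tag but an APOE33 title and a batch 1 tag, and was kept as APOE33. The 6 APOE33 microglia libraries fell into separate sets: the summed level of 8 immediate early genes (among them Fos and Egr1) was 1218, 1153 and 1380 CPM in replicates 1 to 3 and 706, 698 and 580 CPM in replicates 4 to 6. The reason for that split was not tested, and clock gene calls against APOE33 microglia that turned on either set are named with their values below, while the other genes of the pathway were tested against all 6 libraries.

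Clock proteins meet their targets at short DNA motifs, and the promoters of 4 genes with a match to such a motif near the start of transcription are shown here. The windows are from RefSeq on GRCm38.p6, run from 250 bases before to 50 bases after a start site, and are printed 5′ to 3′ on the strand of the gene with the motif in capitals. Per1 (chr11:69098699-69098998, plus strand) held an E-box, CACGTG, whose first base lay at −166 from the start site, and a D-box, TTATGNAA, at −24.
Per1: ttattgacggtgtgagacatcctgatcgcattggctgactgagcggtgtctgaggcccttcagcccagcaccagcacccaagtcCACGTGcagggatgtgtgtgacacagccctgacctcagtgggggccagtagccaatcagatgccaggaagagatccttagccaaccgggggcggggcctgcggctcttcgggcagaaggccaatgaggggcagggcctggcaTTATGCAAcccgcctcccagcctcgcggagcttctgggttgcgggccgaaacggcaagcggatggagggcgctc
Cry1 (chr10:85185005-85185304, minus strand) held an E-box at −60 and an E-box prime, CACGTT read on the other strand, at −79.
Cry1: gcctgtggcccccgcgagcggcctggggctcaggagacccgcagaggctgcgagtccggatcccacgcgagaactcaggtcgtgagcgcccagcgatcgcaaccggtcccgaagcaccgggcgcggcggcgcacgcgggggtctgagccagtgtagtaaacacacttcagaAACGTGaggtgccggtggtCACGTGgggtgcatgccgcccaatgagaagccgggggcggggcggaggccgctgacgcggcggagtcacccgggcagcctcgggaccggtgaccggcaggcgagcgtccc
Per3 (chr4:151044616-151044915, minus strand) held D-boxes at −205 and −158.
Per3: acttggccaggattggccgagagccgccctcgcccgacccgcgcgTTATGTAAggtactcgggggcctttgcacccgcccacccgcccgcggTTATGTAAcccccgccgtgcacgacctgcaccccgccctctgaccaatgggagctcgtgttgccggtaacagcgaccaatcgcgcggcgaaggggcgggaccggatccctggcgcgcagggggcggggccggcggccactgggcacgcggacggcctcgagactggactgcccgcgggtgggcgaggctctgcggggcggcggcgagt
Arntl (chr7:113207261-113207560, plus strand) held a RORE core, TAGGTCA or TGGGTCA, the site bound by NR1D1 and NR1D2, at 31 after the start.
Arntl: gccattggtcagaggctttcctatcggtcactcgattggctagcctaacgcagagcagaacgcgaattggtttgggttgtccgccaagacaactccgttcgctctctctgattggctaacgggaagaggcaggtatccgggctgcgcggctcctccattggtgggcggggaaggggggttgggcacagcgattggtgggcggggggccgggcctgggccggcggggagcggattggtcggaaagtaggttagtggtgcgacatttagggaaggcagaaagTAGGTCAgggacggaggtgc
The motifs were searched on both strands of the 13 windows of the 9 genes with an entry, and Per2 had none. E-boxes were found in 2 of the 13 windows, E-boxes prime in 3 (of Cry1, Cry2 and Nr1d1) and D-boxes in 2. A RORE core was found in 1 window and a cAMP response element, TGACGTCA, in 0. No window of Clock, Dbp or Nr1d2 held any of these motifs. Of all 32851 windows of the same length, 7.15% held an E-box, 4.68% an E-box prime, 3.38% a D-box, 6.45% a RORE core and 1.79% a cAMP response element. A match describes these letters and does not show that a factor binds there.

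All 10 clock genes were expressed in both cell types, with the lowest count of any gene in any library at 538 (Cry2, microglia). Per kilobase of exon (RPKM), the order in microglia was Per1, Nr1d2, Cry1, Clock, Dbp, Nr1d1, Per2, Arntl, Per3 and Cry2, with means over 22 libraries between 11.3 RPKM (SD 3.22) for Per1 and 1.24 RPKM (SD 0.24) for Cry2. Astrocytes had Dbp first at 46.5 RPKM (SD 8.36, n = 22), then Nr1d1, Per1, Nr1d2, Cry2, Cry1, Clock, Per2, Per3 and last Arntl at 2.68 RPKM (SD 0.57). Several neighbours in these orders were not apart: in microglia Per1 was above Nr1d2 in 10 of 22 libraries and Per3 above Cry2 in 11 of 22. In astrocytes Per1 was above Nr1d2 in 12 of 22 libraries and Clock above Per2 in 11 of 22, whereas Dbp was above Nr1d1 in 22 of 22. The place of Dbp, the output factor, in microglia depended on genotype. Clock, averaging 4.03 RPKM over all microglia, was above Dbp, at 3.96 RPKM (SD 1.89), in 14 of 22 libraries. Dbp averaged 7.58 RPKM in KO, 2.86 RPKM in APOE44, 3.84 RPKM in APOE33 and 2.76 RPKM in WT microglia. Clock averaged 3.87 RPKM in KO, 4.03 RPKM in APOE44, 3.94 RPKM in APOE33 and 4.23 RPKM in WT microglia, so Dbp was the higher of the pair in KO.

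**Figure D1:**
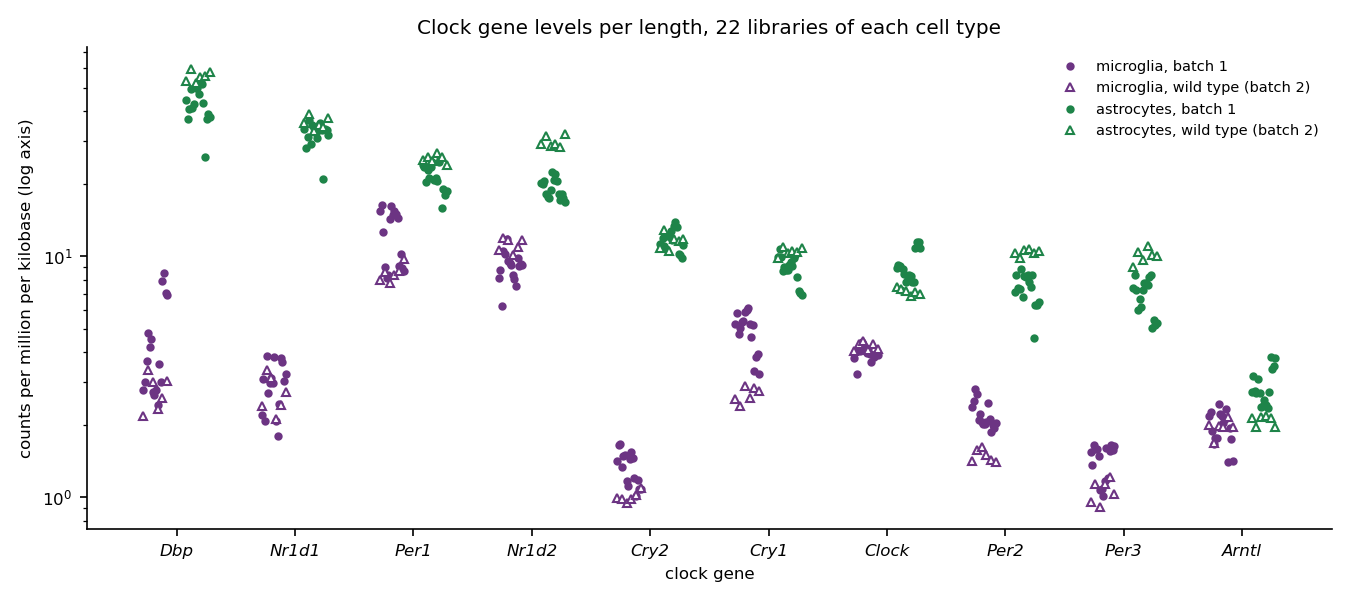
Level per kilobase of exon (RPKM, log axis) of the 10 clock genes, 1 point per library, for the 22 microglia and 22 astrocyte libraries. Dbp, Nr1d1 and Cry2 lie furthest apart between the cell types, and Arntl, at 1.96 RPKM in microglia and 2.68 RPKM in astrocytes on average, lies closest.

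Most clock genes were lower in microglia than in astrocytes, and the gap was widest for Dbp, Nr1d1 and Cry2. In batch 1, Dbp had 7.24 to 25.4 CPM in 16 microglia libraries and 77.2 to 156 CPM in 16 astrocyte libraries. Nr1d1, the repressor of Arntl, had 5.51 to 11.8 CPM in microglia and 64.0 to 113 CPM in astrocytes. Neither gene's range overlapped between the cell types. Nr1d1 shares 8.55% of its exon bases with Thra on the other strand. Thra stood at 9.45 to 17.6 CPM in these microglia and 242 to 393 CPM in these astrocytes. Dbp shares 18% with Sphk2, at 63.5 to 92.8 CPM in microglia and 29.0 to 36.0 CPM in astrocytes. Whether strand was used in counting is not given, and the part of these shared exons was not tested. The log2 difference of Dbp was −2.75 ± 0.08 (SE, adjusted p = 1.96e-22). Nr1d1 differed by −2.92 ± 0.10 (adjusted p = 1.42e-20) and Cry2, a blocker of the ARNTL and CLOCK pair, by −2.64 ± 0.04 (adjusted p = 7e-29). Per3 and Per1, each with a D-box match in a promoter window, differed by −1.69 ± 0.06 and −0.33 ± 0.07. The differences of the other genes were −1.21 ± 0.05 for Per2, −0.71 ± 0.04 for Clock, −0.55 ± 0.06 for Nr1d2, −0.38 ± 0.04 for Cry1 and −0.13 ± 0.04 for Arntl. Of the 10 genes, Arntl and Per1 had ranges that overlapped between the cell types. The share of all genes with such an overlap is not given here, so this only describes the clock genes. These adjusted p-values, and those below, come from edgeR's quasi-likelihood test with Benjamini-Hochberg adjustment over all genes tested, with a call at an adjusted p under 0.05. All 10 clock genes were called lower in batch 1, with a median log2 difference of −0.96, but 90.9% of all 21647 genes tested were called there, 50.6% lower and 40.3% higher, so the count itself is near the background. In these bulk libraries fewer cells of a type and less RNA per cell cannot be told apart.

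The same contrast in the WT libraries, which took no part in the batch 1 fit, called 9 clock genes lower and 1 higher (89.5% of 19331 genes called, 47.9% lower and 41.6% higher). Dbp had 6.54, 8.38 and 10.1 CPM in WT microglia (lowest, median and highest of 6), against 156, 167 and 179 CPM in WT astrocytes. The ranges were far apart, and the log2 difference was −3.85 ± 0.08 (adjusted p = 3.78e-14). Arntl, the activator, had 12.6, 14.8 and 16.1 CPM in WT microglia, against 14.8, 16 and 16.4 CPM in WT astrocytes. Its ranges overlapped, and its direction rests on how libraries are scaled: the log2 difference was 0.39 ± 0.05 (adjusted p = 9.47e-06) with TMM scaling and −0.10 (adjusted p = 0.11) with library totals. That change of scaling moved the median log2 difference of all genes to −0.62 in WT libraries, against −0.13 with TMM, and to −0.75 in batch 1, against −0.25 with TMM. Among the genes called, it also set the share that were higher at 33.6% in WT and 31.7% in batch 1, against 46.5% and 44.3% with TMM. The other 8 clock genes lay between −0.27 (Clock) and −3.24 (Nr1d1) in WT libraries, with −1.08 for Per1, −2.31 for Per2, −2.74 for Per3, −1.48 for Cry1, −3.03 for Cry2 and −0.93 for Nr1d2. Set against the all-gene median, Arntl was higher in microglia under both scalings, in WT libraries and in batch 1. In batch 1 it stood at −0.13 with TMM and −0.63 with library totals, above medians of −0.25 and −0.75. Set against 0, the 10 clock genes stayed lower in batch 1 microglia under library totals.

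In KO astrocytes the activators Arntl and Clock were called higher than in APOE33 astrocytes, and the Per genes, the Cry genes and Dbp lower, while the receptor genes Nr1d1 and Nr1d2 were not called. Arntl, Clock, Per1, Per3 and Cry1 kept their calls with any 1 library left out, and Per2, Cry2 and Dbp did not. Arntl had 28.7, 25.6, 26.3 and 28.6 CPM in KO replicates 1 to 4, against 17.7, 18.1 and 20.6 CPM in APOE44 astrocytes (lowest, median and highest of 6 throughout) and 20.4, 20.6 and 24.0 CPM in APOE33 astrocytes. Every KO library was above every APOE44 and APOE33 library, and Arntl rose by 0.35 ± 0.05 on the log2 scale against APOE33 (SE, edgeR adjusted p = 0.000675). Clock, the partner of ARNTL, had 148, 157, 156 and 148 CPM in KO, against 107, 110 and 115 CPM in APOE44 and 98.9, 122 and 127 CPM in APOE33 libraries. Again no KO library overlapped the other genotypes, and Clock rose by 0.33 ± 0.06 (adjusted p = 0.00154).

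The Per genes moved the other way. Per1, which glucocorticoids and cAMP signals also induce rapidly, had 89.1, 107, 101 and 105 CPM in KO, against 115, 128 and 142 CPM in APOE44 and 114, 130 and 134 CPM in APOE33 astrocytes. Per2 had 26.9, 36.7, 36.6 and 37.7 CPM in KO, against 43.8, 48.2 and 49.1 CPM in APOE44 and 39.5, 43.0 and 51.9 CPM in APOE33 astrocytes. Per3 had 48.3, 52.4, 49.9 and 50.8 CPM in KO, against 69.3, 74.4 and 80.4 CPM in APOE44 and 57.2, 66.8 and 79.9 CPM in APOE33 astrocytes. For each of the 3 genes all KO libraries lay below all APOE44 and APOE33 libraries, and KO replicate 1, the only female KO library, was the lowest. The log2 differences from APOE33 were −0.39 ± 0.08 for Per1 (edgeR adjusted p = 0.00437), −0.41 ± 0.10 for Per2 (adjusted p = 0.00915) and −0.42 ± 0.07 for Per3 (adjusted p = 0.00184). Without KO replicate 1, Per2 was no longer called (−0.24, adjusted p = 0.0555).

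Both cryptochromes were also called lower, though not equally firmly. Cry1 had 27.4, 23.9, 23.5 and 23.1 CPM in KO, against 29.4, 31.1 and 33.6 CPM in APOE44 and 29.0, 31.5 and 35.8 CPM in APOE33 astrocytes. The groups did not overlap, and Cry1 fell by 0.37 on the log2 scale (SE 0.06, edgeR adjusted p = 0.00119). Cry2 had 64.7, 63.8, 62.1 and 70.6 CPM in KO, against 73.7, 81.9 and 87.4 CPM in APOE44 and 67.4, 70.7 and 76.3 CPM in APOE33 astrocytes. KO replicate 4 lay inside the APOE33 range, and the log2 difference of Cry2 was −0.17 ± 0.06 (adjusted p = 0.0457), a call lost in 7 of 10 fits that left out 1 library, with library totals (−0.14, adjusted p = 0.0938) and with no filter on low counts (adjusted p = 0.0672).

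Dbp and the nuclear receptors showed how far 1 library reached. Dbp had 77.2, 111, 116 and 113 CPM in KO, against 129, 149 and 156 CPM in APOE44 and 111, 125 and 147 CPM in APOE33 astrocytes. KO replicates 2 to 4 reached the bottom of the APOE33 range, and the log2 difference was −0.37 ± 0.11 (edgeR adjusted p = 0.0376) with KO replicate 1 and −0.19 (adjusted p = 0.235) without it. It was also not called with no filter on low counts (adjusted p = 0.0728) or with no sex term (adjusted p = 0.0583). Without APOE33 replicate 1, the library with conflicting tags, Dbp stood at −0.35 (adjusted p = 0.0573) and Cry2 at −0.17 (adjusted p = 0.065), so that 6 clock genes were called. Nr1d1 had 64.0, 104, 103 and 97.6 CPM in KO, against 95.5, 104 and 110 CPM in APOE44 and 86.6, 99.8 and 113 CPM in APOE33 astrocytes. Only KO replicate 1 lay outside the other genotypes, and Nr1d1 was not called (−0.21 ± 0.12, adjusted p = 0.23). It shares 263 exon bases (8.55% of its exons) with Thra on the other strand, which stood at 242 to 262 CPM in KO and 256 to 345 CPM in APOE33 astrocytes. Nr1d2 was not called either, at 91.0 to 97.7 CPM in KO and 94.4 to 111 CPM in APOE33 astrocytes (−0.14 ± 0.07, adjusted p = 0.171).

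Against APOE33, 8 of 10 clock genes were called in KO astrocytes, 2 higher and 6 lower, where 17.2% of all 20481 genes tested were called (8.37% higher and 8.83% lower). Without KO replicate 1 there were 5 (Arntl, Clock, Per1, Per3 and Cry1), while calls over all genes fell to 1836 from 3522. The median log2 difference was −0.29 over the clock genes and 0.00 over all genes. Against APOE44, in a comparison that shares the KO libraries, 9 were called (22.7% of all genes), with Arntl at 0.55 ± 0.05 (edgeR adjusted p = 5.73e-06), Per3 at −0.59 ± 0.07 (adjusted p = 6.64e-05) and Nr1d1 not called (−0.24, adjusted p = 0.146). The other 7 called there were Clock (0.44), Per1 (−0.39), Per2 (−0.49), Cry1 (−0.37), Cry2 (−0.34), Nr1d2 (−0.25) and Dbp (−0.55). Other signals moved with the same contrast. The 8 immediate early genes summed to 48.2 to 59.8 CPM in KO, 165 to 538 CPM in APOE44 and 135 to 734 CPM in APOE33 astrocytes, and 6 of the 8 were called lower against APOE33, with a median log2 difference of −2.24. The 7 glucocorticoid-induced genes summed to 706 to 734 CPM in KO and 899 to 1297 CPM in APOE33 astrocytes, with 3 called lower. Markers of ependyma and choroid (4 genes) summed to 111 to 226 CPM in KO and 242 to 344 CPM in APOE33 astrocytes, and those of neurons (6 genes) to 56.8 to 102 CPM in KO, with Rbfox3 and Snap25 at 0, and 32.1 to 93.2 CPM in APOE33 astrocytes. Microglia markers (10 genes) summed to 199.8 to 385 CPM in KO and 139 to 460 CPM in APOE33 astrocytes. Their part in the clock gene differences was not tested.

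**Figure D2:**
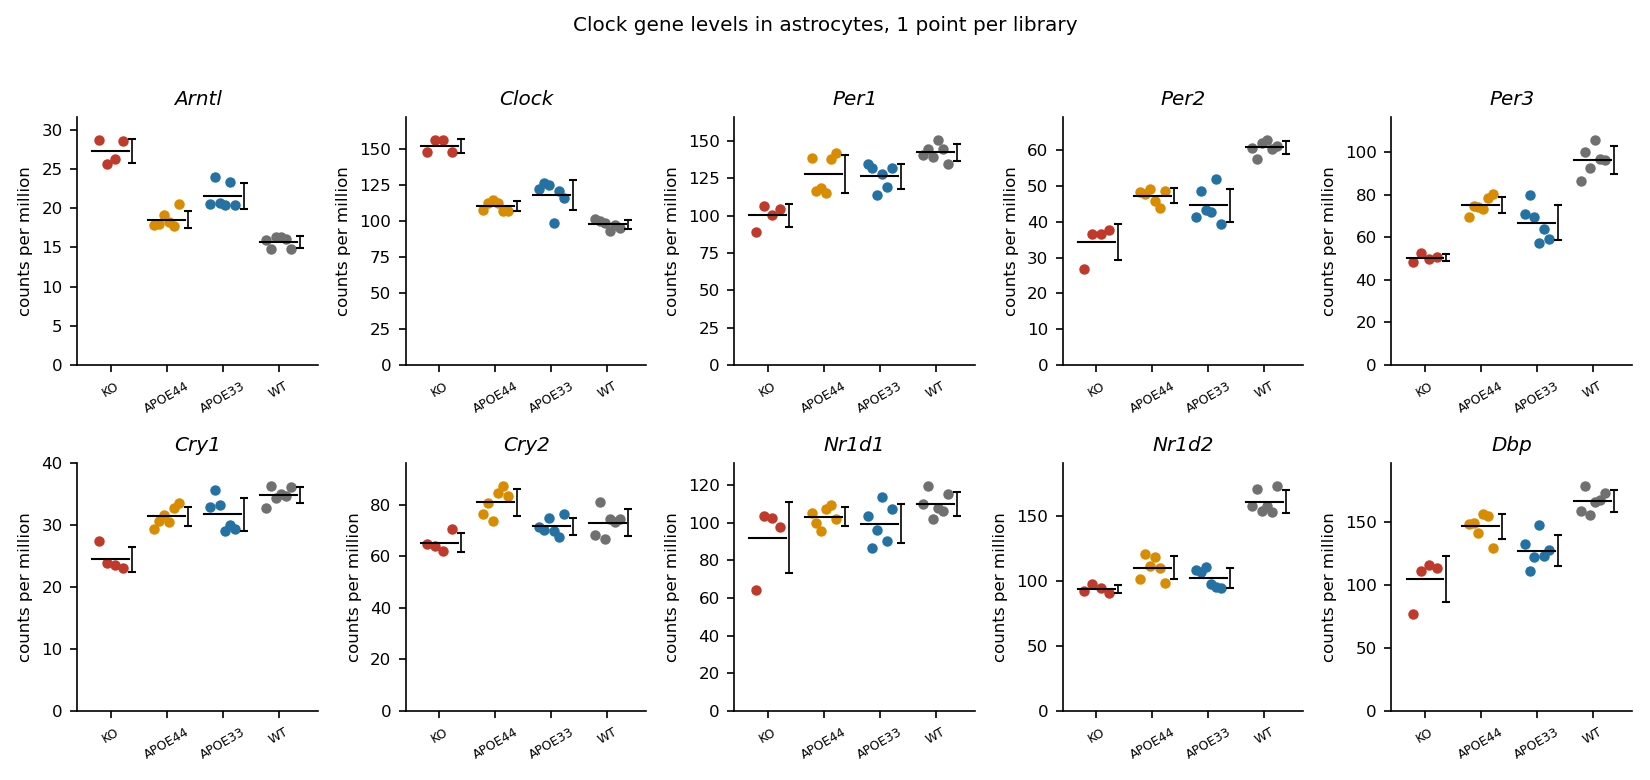
Level (CPM) of each clock gene in astrocytes, 1 point per library, for KO (n = 4), APOE44, APOE33 and WT (n = 6 each), with group means. Arntl and Clock are highest in KO, where Arntl reaches 25.6 to 28.7 CPM, and KO replicate 1 is the low point for Per2, Nr1d1 and Dbp.

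In KO microglia the activators did not follow that pattern, and Dbp was higher. Dbp had 23.7, 25.4, 21 and 20.6 CPM in KO, against 7.24, 8.25 and 10.7 CPM in APOE44 microglia and 8.38, 9.0, 11, 14.4, 12.6 and 13.5 CPM in APOE33 replicates 1 to 6. Every KO library was above every APOE44 and APOE33 library. Dbp rose by 1.01 ± 0.15 on the log2 scale against APOE33 (SE, edgeR adjusted p = 0.000346), by 0.79 (adjusted p = 0.000841) against APOE33 replicates 4 to 6 alone and by 1.29 (adjusted p = 4.47e-05) against replicates 1 to 3 alone. Dbp shares 539 exon bases (18% of its exons) with Sphk2 on the other strand, and the sources used here do not say whether strand was used in counting. Sphk2 stood at 63.5 to 66.9 CPM in KO and 75.5 to 86.8 CPM in APOE33 microglia, lower where Dbp was higher.

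The cryptochromes were lower in KO microglia. Cry1 had 11.1, 12.8, 13.2 and 10.8 CPM in KO, against 15.5, 18.5 and 20.3 CPM in APOE44 and 15.9, 17.6 and 19.5 CPM in APOE33 microglia. Cry2 had 6.40, 7.43, 6.84 and 6.82 CPM in KO, against 7.01, 8.40 and 9.74 CPM in APOE44 and 8.47, 9.44 and 10.5 CPM in APOE33 microglia. Neither gene overlapped between KO and APOE33, whereas for Cry2 the KO and APOE44 ranges met. Against APOE33, Cry1 fell by 0.49 on the log2 scale (SE 0.08, edgeR adjusted p = 0.00038) and Cry2 by 0.44 (SE 0.10, adjusted p = 0.00407), and both calls held against either set of 3 APOE33 libraries. Per2 had 10.9 to 11.9 CPM in KO and 12.3 to 16.6 CPM in APOE33 microglia (−0.28 ± 0.09, adjusted p = 0.0271), a call lost without APOE33 replicates 1 to 3 (−0.19, adjusted p = 0.159).

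For Per1 the outcome turned on which APOE33 microglia were used. Per1 had 51.3, 57.4, 50.5 and 49.1 CPM in KO, against 80.0, 83.8 and 90.6 CPM in APOE44 microglia and 86.9, 91.7, 71.1, 50.8, 45.8 and 47.1 CPM in APOE33 replicates 1 to 6. KO libraries lay below APOE33 replicates 1 to 3 and among or above replicates 4 to 6. The log2 difference was −0.21 ± 0.18 (edgeR adjusted p = 0.439) against all 6, −0.55 (adjusted p = 2.86e-05) against replicates 1 to 3 and 0.20 (adjusted p = 0.0134) against replicates 4 to 6. The immediate early sum moved in the same libraries, at 492 to 581 CPM in KO, 712 to 1235 CPM in APOE44 and 580 to 1380 CPM in APOE33 microglia, and the sum of glucocorticoid-induced genes was 741 to 824 CPM in KO, 1530, 1641 and 1552 CPM in APOE33 replicates 1 to 3 and 1023, 1117 and 1196 CPM in replicates 4 to 6. The 6 cell cycle genes summed to 171, 102 and 97.4 CPM in APOE33 replicates 1 to 3 and 67.7, 57.5 and 41.8 CPM in replicates 4 to 6. The part of these genes in the Per1 values was not tested.

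Arntl, Clock, Per3, Nr1d1 and Nr1d2 were not called between KO and APOE33 microglia. Arntl had 10.5, 14.6, 13.2 and 10.6 CPM in KO, against 15.3, 16.5 and 18.3 CPM in APOE44 and 12.5, 13.7 and 17.0 CPM in APOE33 microglia. The KO range overlapped APOE33 and not APOE44, with log2 differences of −0.19 ± 0.10 (edgeR adjusted p = 0.196) and −0.39 ± 0.09 (adjusted p = 0.00608). Clock stayed within 52.2 to 53.8 CPM in KO and 44.8 to 60.7 CPM in APOE33 microglia (0.05 ± 0.07, adjusted p = 0.647), and its sign turned with library totals (−0.02). Per3 had 15 to 15.9 CPM in KO and 13.0 to 15.8 CPM in APOE33 microglia (0.10 ± 0.11, adjusted p = 0.564). The receptors overlapped too, with Nr1d1 at 9.36 to 11.7 CPM in KO and 6.37 to 11.8 CPM in APOE33 (0.38 ± 0.21, adjusted p = 0.218) and Nr1d2 at 49.3 to 52.9 CPM in KO and 33.5 to 63.4 CPM in APOE33 microglia (0.09 ± 0.14, adjusted p = 0.696). In all, 4 clock genes were called against APOE33, 1 higher and 3 lower (22.7% of all 17143 genes called, 10.9% higher and 11.9% lower), and 7 without APOE33 replicates 4 to 6, where Arntl (−0.31, adjusted p = 0.0374), Per1 and Nr1d2 (0.40, adjusted p = 0.00978) were added. Against APOE33 replicates 4 to 6 alone, 4 were called, with Per1 in and Per2 out. The 22.7% of all genes belongs to the fit with all APOE33 libraries and not to these smaller fits. Their own shares are not given here, so these counts only describe the clock genes. Against APOE44, which shares the KO libraries, 5 were called (26.9% of all genes): Dbp at 1.45 ± 0.15 (adjusted p = 1.38e-05), Per3 at 0.49 ± 0.11, Arntl, Per1 at −0.60 ± 0.17 and Cry1 at −0.55 ± 0.07. The 5 not called were Clock (0.02), Per2 (−0.06), Cry2 (−0.24), Nr1d1 (0.43) and Nr1d2 (0.18). With library totals, 29.9% of the genes called against APOE33 and 32.5% of those called against APOE44 were higher, where TMM gave 47.8% and 50.4%. The directions of the clock genes named here as called stayed. The 10 microglia markers summed to 13708 to 14403 CPM in KO and 15699 to 18762 CPM in APOE33 microglia, with 3 called lower. The 10 markers of astrocytes, the cell type with more Dbp, summed to 73.5 to 104 CPM in KO and 26.8 to 77.6 CPM in APOE33 microglia, with 2 called higher and 0 lower. Markers of the oligodendrocyte lineage (8 genes, Mog at 0 in KO) summed to 139 to 169 CPM in KO and 167 to 266 CPM in APOE33 microglia, and those of endothelium (5 genes, Cldn5 at 0) to 148 to 233 CPM in KO and 117 to 162 CPM in APOE33 microglia. Their part in these differences was not tested.

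**Figure D3:**
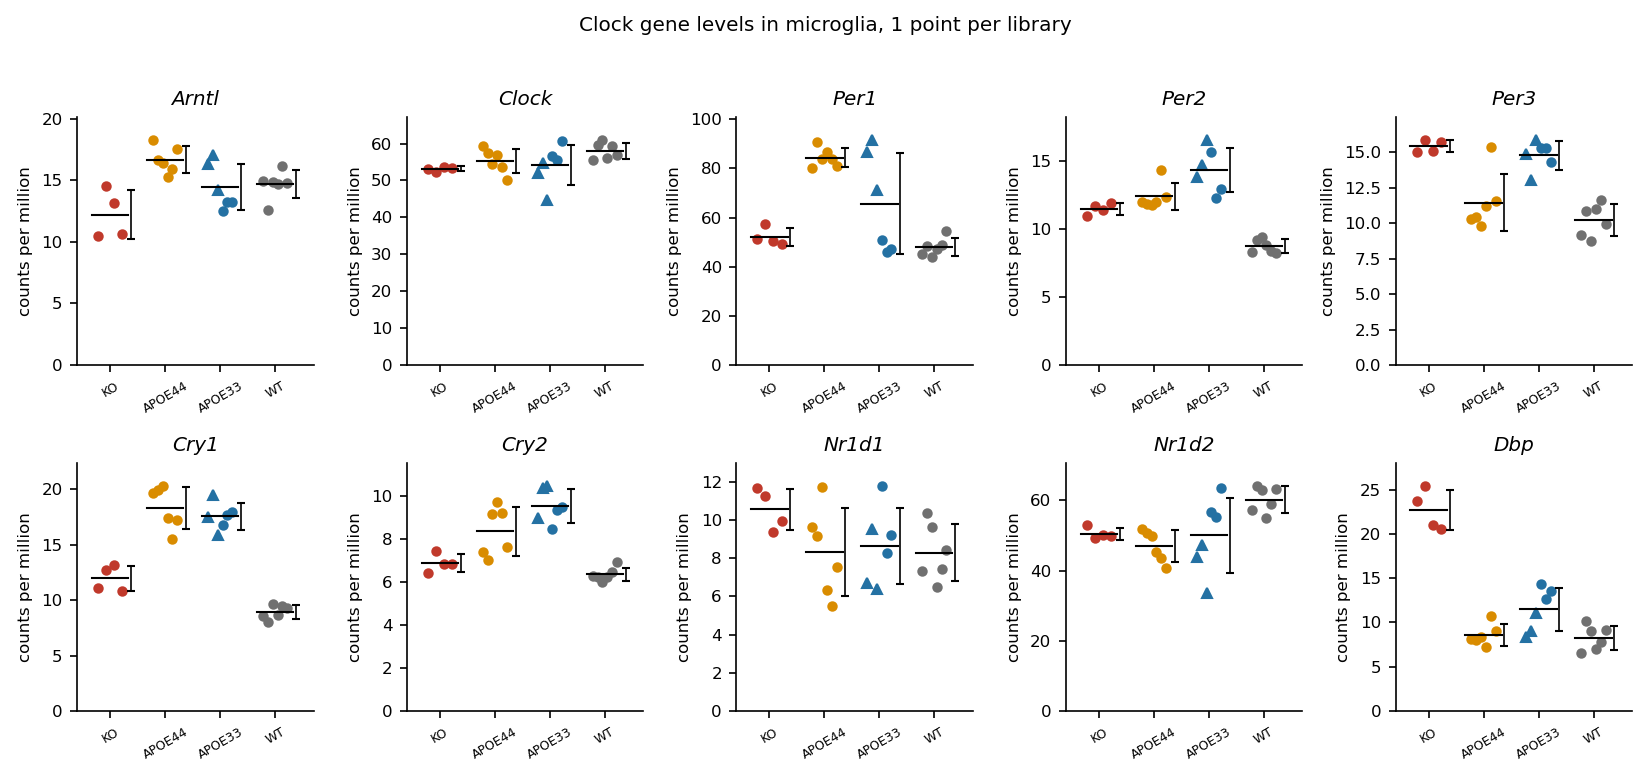
Level (CPM) of each clock gene in microglia, 1 point per library, for KO (n = 4), APOE44, APOE33 and WT (n = 6 each), with group means. Dbp is highest in KO, at 20.6 to 25.4 CPM, and the APOE33 libraries split into a high and a low set for Per1.

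Whether the KO difference was alike in the cell types was tested as the KO against APOE33 difference in microglia minus that in astrocytes. It was called for 4 clock genes (12.7% of 21647 genes called): Dbp at 1.37 ± 0.20 (SE, edgeR adjusted p = 5.37e-05), Arntl at −0.54 ± 0.11 (adjusted p = 0.00164), Per3 at 0.52 ± 0.14 (adjusted p = 0.0156) and Clock at −0.29 ± 0.10 (adjusted p = 0.0453). The log2 difference of Dbp was 1.01 in microglia and −0.37 in astrocytes, where it was not called without KO replicate 1 (−0.19, adjusted p = 0.235). That of Arntl was −0.19 in microglia, where it was not called (adjusted p = 0.196), and 0.35 in astrocytes. The test shows that the differences were unlike in the cell types and not that each gene moved both ways. These calls for Dbp and Arntl held in all 20 fits that left out 1 library and against either set of 3 APOE33 microglia, with Dbp at 1.17 (adjusted p = 0.000115) against replicates 4 to 6 and 1.68 (adjusted p = 1.43e-06) against replicates 1 to 3, and Arntl at −0.41 (adjusted p = 0.0106) and −0.64 (adjusted p = 0.000186). Per1 was added against replicates 4 to 6 (0.60, adjusted p = 0.000448). Against replicates 1 to 3, Nr1d1 (0.82, adjusted p = 0.0431) and Nr1d2 (0.57, adjusted p = 0.00311) were added and Clock was not called (−0.13, adjusted p = 0.363). Clock was lost in 11 of the 20 and Per3 in 2, so that 2 clock genes were called without astrocyte KO replicate 1 or without microglia KO replicate 1. With library totals, 27.3% of the genes called were higher, against 48.6% with TMM. The all-gene median moved to −0.12, against −0.03, and Cry2 was added (−0.37, adjusted p = 0.0226).

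**Figure D4:**
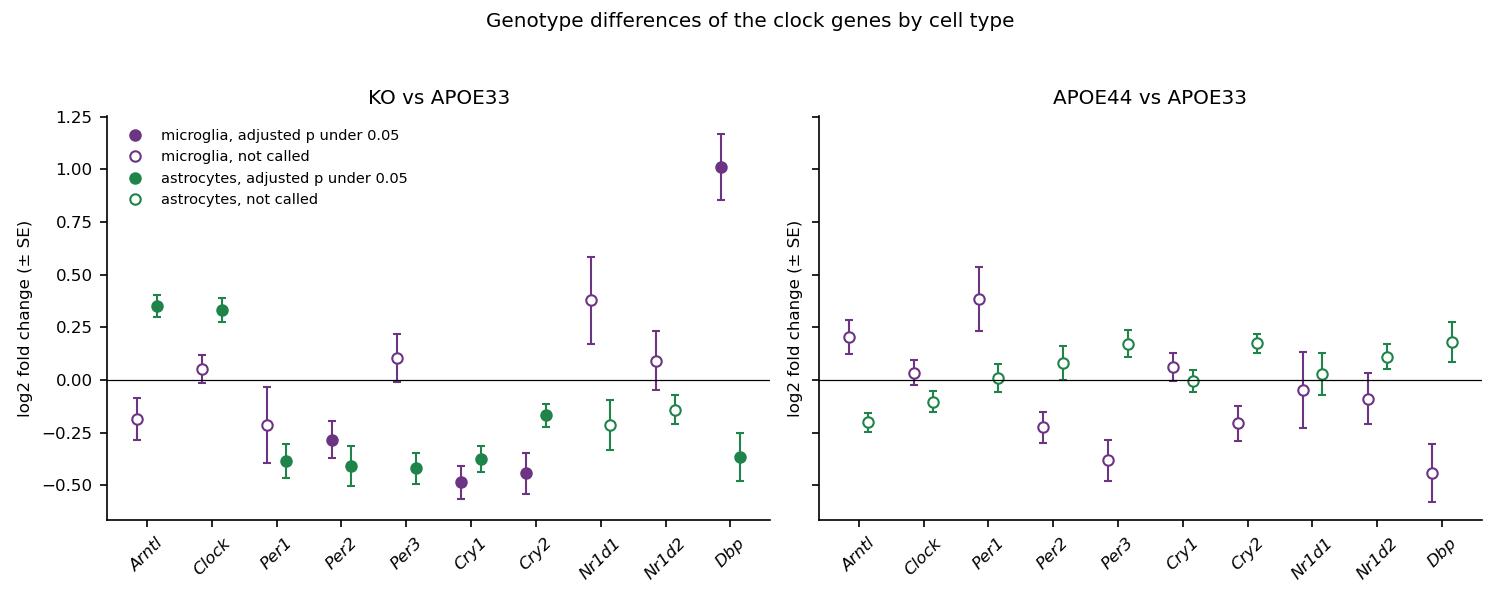
Log2 fold change of the 10 clock genes, KO against APOE33 and APOE44 against APOE33, in microglia and astrocytes, with bars of 1 SE from the edgeR fit. Dbp at 1.01 in KO microglia and −0.37 in KO astrocytes, and Arntl at −0.19 and 0.35, have opposite signs in the cell types, and the open circle of Arntl in microglia marks a difference that was not called.

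Between APOE44 and APOE33 no clock gene was called in either cell type. In astrocytes 0 of 10 were called (0.703% of all genes called), and 1 was called by DESeq2. An unadjusted edgeR p under 0.05, a looser threshold to which that share does not apply, was met by 3. The share of all genes at that threshold is not given here, so the count does not show an excess. The nearest was Arntl, at 17.7, 18.1 and 20.6 CPM in APOE44 and 20.4, 20.6 and 24.0 CPM in APOE33 astrocytes, ranges that just overlapped (−0.20 ± 0.05, edgeR adjusted p = 0.0531, DESeq2 adjusted p = 0.00492). Cry2 and Per3 had log2 differences of 0.17 ± 0.05 (adjusted p = 0.157) and 0.17 ± 0.06 (adjusted p = 0.331). The other 7 genes, Clock, Per1, Per2, Cry1, Nr1d1, Nr1d2 and Dbp, lay between −0.10 (Clock) and 0.18 (Dbp), and the ranges of all 10 overlapped. In microglia 0 of 10 were called (0.84% of all genes called), and 2 were called by DESeq2 (Per3 and Dbp). The looser unadjusted threshold, to which that share again does not apply, was met by 6. Without the share of all genes at that threshold, this count does not show an excess either. Per3 had 9.78, 10.8 and 15.4 CPM in APOE44 and 13.0, 15.1 and 15.8 CPM in APOE33 microglia. All but 1 of the APOE44 libraries were below every APOE33 library, replicate 5 being the exception, and the log2 difference was −0.38 ± 0.10 (adjusted p = 0.0889). Dbp stood at −0.44 ± 0.14 (adjusted p = 0.183), and the other 8 lay between −0.22 (Per2) and 0.38 (Per1), with Arntl at 0.20, Clock at 0.03, Cry1 at 0.06, Cry2 at −0.21, Nr1d1 at −0.05 and Nr1d2 at −0.09. Against APOE33 replicates 4 to 6 alone, 3 clock genes were called: Per1 (0.81, adjusted p = 4.26e-07), Dbp (−0.67, adjusted p = 0.00354) and Nr1d2 (−0.33, adjusted p = 0.0269). Calls over all genes rose in that fit as well. Against replicates 1 to 3 alone none passed, with Per1 at 0.05 and Dbp at −0.16. The APOE44 against APOE33 difference differed between the cell types for Per3 (microglia minus astrocytes −0.55 ± 0.12, adjusted p = 0.0423, 0.296% of all genes called), a call lost in 19 of 24 fits that left out 1 library and without APOE33 microglia replicates 4 to 6 (−0.48, adjusted p = 0.0594). Against replicates 4 to 6 alone it was called for 5 clock genes, with Per1 at 0.84 (adjusted p = 5.65e-06) and Arntl at 0.57 (adjusted p = 0.00125) besides Per3, Dbp and Nr1d2. There too, calls over all genes rose.

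Against WT, clock genes were called in every genotype, in comparisons that share the WT libraries and mix genotype with batch. In astrocytes Arntl had 25.6 to 28.7 CPM in KO, 17.7 to 20.6 CPM in APOE44, 20.4 to 24.0 CPM in APOE33 and 14.8 to 16.4 CPM in WT libraries. The WT range lay below the others, with log2 differences from WT of 0.84 ± 0.05 for KO, 0.28 ± 0.04 for APOE44 and 0.48 ± 0.04 for APOE33 (edgeR adjusted p = 2.08e-11, 9.93e-06 and 1.51e-08). Nr1d2 had 91.0 to 97.7 CPM in KO, 98.3 to 121 CPM in APOE44, 94.4 to 111 CPM in APOE33 and 154 to 174 CPM in WT astrocytes, so WT stood apart at the top. Clock was also higher and Per2 and Per3 lower in each genotype, with Per3 at −0.91 in KO, −0.32 in APOE44 and −0.49 in APOE33. Per1 (−0.49), Cry1 (−0.48) and Nr1d1 (−0.27) were called lower in KO and not called in the other genotypes. Cry2 was lower in KO (−0.15), higher in APOE44 (0.19) and not called in APOE33, and Dbp was lower in KO (−0.68) and APOE33 (−0.32) and not called in APOE44. In all, 10 clock genes were called in KO astrocytes (2 higher and 8 lower, with 38.3% of all genes called, 19.4% higher and 18.9% lower), 6 in APOE44 (3 higher and 3 lower, with 41.7% called, 20.6% higher and 21.1% lower) and 6 in APOE33 (2 higher and 4 lower, with 39% called, 20.1% higher and 18.9% lower). The 10 calls in KO were 8 to 10 with a library left out, since Nr1d1 (edgeR adjusted p = 0.0369) was lost in 6 of 10 such fits, among them the one without KO replicate 1 (−0.11, adjusted p = 0.305), and Cry2 in 3. Nr1d1 was also lost with no filter on low counts (adjusted p = 0.0803) and with no sex term (adjusted p = 0.0942). With library totals, 41.4% of the genes called in APOE33 astrocytes were higher, against 51.6% with TMM. Other lists moved with these comparisons. Of 8 immediate early genes, which summed to 99.8 to 139 CPM in WT astrocytes, 0 were higher and 4 lower in KO, and 5 were higher and 0 lower in APOE44 and again in APOE33, with medians of −1.47, 1.46 and 1.49. Of 7 glucocorticoid-induced genes, at 1158 to 1347 CPM in WT, 5 were lower in KO, 5 in APOE44 and 4 in APOE33. Of 8 markers of the oligodendrocyte lineage, at 77.5 to 81.4 CPM in WT, 2 were higher in KO, 6 in APOE44 and 6 in APOE33. Their part in the clock gene differences was not tested.

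In microglia the gene furthest from WT was a repressor in the APOE44 and APOE33 cells and Dbp in the KO cells. Cry1 had 10.8 to 13.2 CPM in KO, 15.5 to 20.3 CPM in APOE44, 15.9 to 19.5 CPM in APOE33 and 8.02 to 9.68 CPM in WT microglia. WT lay below all of them, and the log2 differences were 0.49 ± 0.07 for KO, 1.03 ± 0.06 for APOE44 and 0.97 ± 0.06 for APOE33 (edgeR adjusted p = 1.23e-05, 1.38e-10 and 4e-10). Dbp, at 6.54 to 10.1 CPM in WT microglia, differed by 1.5 ± 0.15 in KO (adjusted p = 1.22e-07), 0.05 ± 0.13 in APOE44 (adjusted p = 0.761) and 0.51 ± 0.13 in APOE33 (adjusted p = 0.00402), the last of which was not called against APOE33 replicates 1 to 3 alone (0.22, adjusted p = 0.184). Per2 was called higher in all 3 genotypes, with 10.9 to 11.9 CPM in KO, 11.8 to 14.4 CPM in APOE44, 12.3 to 16.6 CPM in APOE33 and 8.21 to 9.43 CPM in WT libraries. The counts were 4 higher and 0 lower in KO (42.4% of all genes called, 20.9% higher and 21.5% lower), 4 higher and 1 lower in APOE44 (45.4% called, 22.3% higher and 23.1% lower) and 6 higher and 1 lower in APOE33 (44.8% called, 22.2% higher and 22.6% lower). Per3 and Dbp were the other genes called higher in KO, and Per1, Per3, Cry2 and Dbp in APOE33. In APOE44 Per1 and Cry2 were the other genes called higher, and Nr1d2 was the gene called lower in APOE44 (−0.36) and APOE33 (−0.27). Arntl, Clock and Nr1d1 were not called in any genotype. With library totals, 37.3% of the genes called in KO microglia were higher, against 49.4% with TMM. The APOE33 count was 5 to 8 with a library left out, since Nr1d2 (edgeR adjusted p = 0.049) was lost in 8 of 12 such fits and Per1 in 1. Against WT, APOE33 replicates 4 to 6 alone gave 5 calls, with Cry1 at 1.00 and Per2 at 0.67, and Per1 (0.02, adjusted p = 0.819) and Nr1d2 (−0.01, adjusted p = 0.934) not called. Replicates 1 to 3 alone gave 7, with Cry1 at 0.97 and Per2 at 0.79, Clock added (−0.22, adjusted p = 0.00223) and Dbp lost. The 44.8% of all genes is for the fit with all APOE33 libraries and not for either set. The share for each set is not given here, so both counts only describe the clock genes. Of 10 microglia markers, which summed to 10933 to 13316 CPM in WT microglia, 7 were called higher in KO, 9 in APOE44 and 9 in APOE33, with medians of 0.37, 0.50 and 0.60. Markers of fibroblasts and mural cells (6 genes) summed to 0.144 to 0.373 CPM in KO, with Col1a1, Dcn and Lum at 0, 0.253 to 0.451 CPM in APOE44, 0.291 to 0.587 CPM in APOE33 and 1.01 to 2.79 CPM in WT, and 3 of 4 tested were called lower in each genotype. Their part in these differences was not tested.

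Within groups, libraries also differed from each other in Arntl and in its repressors. Within-group departures of log2 CPM were set against those of Arntl over the 22 astrocyte libraries, in 18 relations over both cell types, with 100000 permutations of libraries within groups. Nr1d1, which represses Arntl, had Pearson's r = −0.68 (permutation p = 2e-05, adjusted p = 0.00027) and Spearman's rho = −0.83 (p = 1e-05, the smallest that these permutations can give, adjusted p = 0.00018). Dbp had r = −0.68 (permutation p = 3e-05, adjusted p = 0.00027) and rho = −0.71 (adjusted p = 0.00468). Cry2 had r = −0.65 (permutation p = 0.00322, adjusted p = 0.0193) and rho = −0.70 (adjusted p = 0.00708). An astrocyte library with more Arntl than its group thus tended to have less Nr1d1, Dbp and Cry2. Within batch 1 (n = 16) r was −0.69 for Nr1d1 (permutation adjusted p = 0.0054), −0.69 for Dbp (adjusted p = 0.00549) and −0.53 for Cry2 (adjusted p = 0.192). Within the 6 WT libraries r was −0.87, −0.96 and −0.94 (exact permutation adjusted p = 0.119, 0.05 and 0.05). These correlations had no term for sex. In WT astrocytes Arntl departures were 0.04 to 0.08 in females and −0.11 to 0.01 in males. Dbp departures were −0.07 to −0.02 in females and −0.01 to 0.08 in males. KO replicate 1, the only female KO library, had the highest Arntl (0.06) and the lowest Dbp (−0.43) in KO. In APOE44 and APOE33 astrocytes the ranges of Arntl overlapped between the sexes. The part of sex was not tested. Without the 2 libraries farthest from the median of Arntl (APOE33 replicate 5 and APOE44 replicate 6) r was −0.70 for Nr1d1, −0.66 for Dbp and −0.68 for Cry2. Nr1d2 had r = −0.56 (permutation adjusted p = 0.0597), and the other 5 genes lay between −0.17 and 0.27 with no adjusted p under 0.05.

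**Figure D5:**
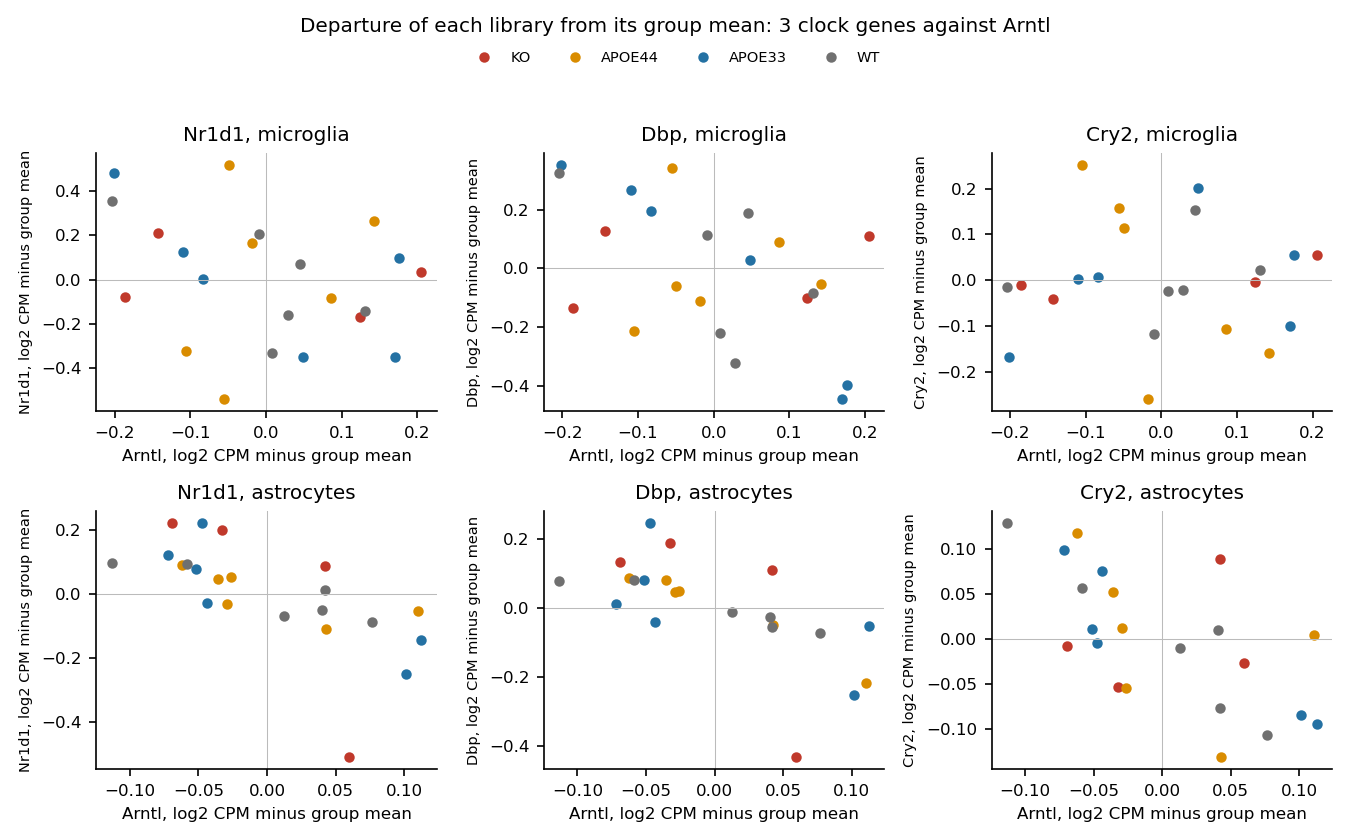
Departure of each library from its group mean (log2 CPM) for Nr1d1, Dbp and Cry2 against that of Arntl, 22 libraries per cell type, coloured by group. In astrocytes the points fall along a downward line, with r = −0.68 for Nr1d1 and Dbp and −0.65 for Cry2.

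In microglia the planned correlation with Arntl over all 22 libraries passed for none of 9 genes. Dbp had r = −0.50 (permutation adjusted p = 0.0899), Cry1 r = 0.48 (adjusted p = 0.0899) and Per1 r = 0.54 (adjusted p = 0.0932). Nr1d2 had r = −0.48, Clock r = −0.46 and Nr1d1 r = −0.31. These values include the APOE33 libraries, which form separate sets. Over the other 16 microglia libraries none of 9 genes passed either, with Cry1 at r = 0.57 (permutation adjusted p = 0.109) and Dbp at r = −0.16 (adjusted p = 0.798). The genes whose within-group pattern was most like that of Dbp over the 22 astrocyte libraries, as a description over 11575 genes, were Nr1d1 (r = 0.93) and Stard10 (r = 0.84). For Arntl in astrocytes the most alike was Adora2b (r = 0.76) and the most opposite was Bhlhe41 (r = −0.82), which encodes DEC2, a repressor at E-boxes. In microglia, ranked over 9968 genes and all 22 libraries, Dusp7 (r = 0.86) and the related D-box factor Tef (r = 0.82) were among the 5 most like Dbp, and Hmgb2 (r = 0.78) was most like Arntl. Over the 16 microglia libraries without APOE33, a setting chosen after seeing the data, these r were 0.71 for Dusp7, 0.71 for Tef and 0.73 for Hmgb2. The cell cycle sum split between the APOE33 sets, and its part in these r was not tested. All of these r share the same libraries and their depth.

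Other genes of the clock pathway were called in KO astrocytes at about the share of all genes, which was 17.2%. Of 11 further clock transcription factors, 1 was called higher and 1 lower against APOE33: Arntl2, a relative of Arntl, at 3.47 CPM in KO and 2.40 CPM in APOE33 (0.52 ± 0.15, edgeR adjusted p = 0.027), and Tef, at 292 CPM in KO and 386 CPM in APOE33 (−0.44 ± 0.09, adjusted p = 0.00501). Rora and Rorb, which activate Arntl at the RORE, were not called. Of a list of 10 genes for clock kinases, ubiquitin ligases, their subunits and Timeless, 1 was called lower, Csnk2b (−0.26, edgeR adjusted p = 0.0437). Of 8 clock-controlled genes, Ppara was higher (0.38, adjusted p = 0.0202) and Klf10 lower (−0.76, adjusted p = 0.0177). In KO microglia, where 22.7% of all genes were called (10.9% higher and 11.9% lower), 9 of the 11 transcription factors were tested and 2 were called higher: Npas2, which can stand in for Clock, at 0.45 CPM in KO and 0.14 CPM in APOE33 (1.94 ± 0.45, adjusted p = 0.00521), and Arntl2, at 0.67 CPM in KO and 0.29 CPM in APOE33 (1.39 ± 0.22, adjusted p = 0.00039). Nfil3, which opposes DBP at D-boxes, was lower at 8.36 CPM in KO and 12.5 CPM in APOE33 microglia (−0.58 ± 0.14, adjusted p = 0.0069). From the same list of 10 genes with kinases and ligases, 3 were called lower there, Csnk1e (−0.32, edgeR adjusted p = 0.000733), Fbxw11 (−0.16) and Csnk2b (−0.18). Of 7 clock-controlled genes tested, Nampt was higher (0.61, adjusted p = 5.99e-05) and Usp2, Noct and Sirt1 were lower, Noct by most (−1.05, adjusted p = 0.000823).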

How the data were processed

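The authors deposited a table of raw counts per gene for 44 libraries, without normalization. Per the labels' protocols, an RNeasy kit and an NEBNext Ultra kit were used, with paired 150-base reads on an Illumina HiSeq. The submitters' processing notes name STAR 2.5.3a, featureCounts, edgeR 3.26.8 and DESeq2 3.14, and hg38 as the only build. The sources used here do not give the mouse build or the strand setting. Of 54146 mouse gene identifiers, 54079 matched GENCODE M21 (GRCm38), which gave symbols and exon lengths. Among counts of 1 to 9, 62.4% to 78.7% were even. Of 102 pairs of libraries within groups, 0 were identical, and the smallest chi-square per gene was 12.1.

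From the counts, edgeR 4.0.16 (R 4.3.3) gave quasi-likelihood F tests (robust, TMM scaling, filterByExpr), with a term for sex, separate by cell type in fits over both. Genotypes of batch 1 were fitted over 16 libraries per cell type, comparisons with WT over 22, and cell types over the 32 libraries of batch 1 or the 12 WT libraries. Adjusted p-values are Benjamini-Hochberg over all genes, with calls under 0.05, and SE is the absolute log2 difference over the root of F. The code was tested on simulated data. Correlations used log2 CPM with a prior count of 2 and had no term for sex. DESeq2 1.42.0, other scalings and filters, no sex term, a replicate block and leaving out libraries were alternatives.

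The rule was to name all 10 clock genes in each comparison. Of the 5 genes most and 5 least like Arntl or Dbp, a few are named. The members, the companion lists, the markers and the tests were chosen with earlier results of these data known. Of 22 microglia and astrocyte pairs of the same genotype and number, 4 correlated above 0.1 over 9344 genes. Sex matched within every such pair, and whether a pair shared a mouse is not given.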

Additional observations from a re-analysis of the deposited data

Results flagged for a closer look

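In 80 groups of 4 or 6 libraries (10 genes in 8 groups), 5 held a library far from the others by Dixon's test, which chance gives in about 1 group in 20. In KO astrocytes, replicate 1 was the low library for Per2 (26.9 CPM, with the others at 36.6 to 37.7 CPM), for Nr1d1 (64.0 CPM, with the others at 97.6 to 104 CPM) and for Dbp (77.2 CPM, with the others at 111 to 116 CPM). It is also the only female KO library. In APOE44 microglia, replicate 5 was the high library for Per2 (14.4 CPM) and Per3 (15.4 CPM).

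The genotype difference differed between microglia and astrocytes by an edgeR interaction test for 5 results. For KO against APOE33, these were Dbp (1.37, adjusted p = 5.37e-05), Arntl (−0.54, adjusted p = 0.00164), Per3 (0.52, adjusted p = 0.0156) and Clock (−0.29, adjusted p = 0.0453). For APOE44 against APOE33 it was Per3 (−0.55, adjusted p = 0.0423).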

How the results depend on the processing

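The alternatives were DESeq2 in place of edgeR, DESeq2 size factors, no filter on low counts, no sex term, all 22 libraries of a cell type in the batch 1 comparisons, a replicate block and leaving out each library. Leaving out sets of APOE33 microglia and scaling by library totals without TMM were added after seeing the data. Over the single genes and correlations, 3588 alternative values kept their direction and their side of the threshold, 96 lost a call, 67 gained one and 84 changed sign. Of the results that changed sign, Arntl in WT microglia against WT astrocytes was the only one called by the main test. The cause of each change was not tested. Every clock gene had at least 538 counts in every library.

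By correlation, the replicate numbers did not pair astrocyte and microglia libraries. The best match had the same genotype and number for 0 of 22 astrocyte and 2 of 22 microglia libraries. Sex did match within every astrocyte and microglia pair of the same genotype and number. Whether such a pair came from the same mouse is not given, and low correlation cannot settle it. The main fits over both cell types took the libraries as unpaired. In fits over both cell types the replicate block joined libraries of the same genotype and number. Within a cell type it joined libraries of the same number across genotypes, whose sex did not always match, so it does not stand for a shared mouse. With the block, all-gene calls for KO against APOE33 astrocytes were 1892, against 3522 without it. Those for APOE44 against APOE33 were 70 in astrocytes and 51 in microglia, against 144 in each. With the block, Per1 (−0.00603) and Cry1 (0.00162) turned sign between APOE44 and APOE33 astrocytes, and 0 clock genes differed between cell types for APOE44 against APOE33. The block also ended the calls of Cry2 (−0.17, adjusted p = 0.107) and Dbp (−0.42, adjusted p = 0.0554) in KO against APOE33 astrocytes, of Per2 in KO against APOE33 microglia (adjusted p = 0.0992), of Nr1d2 in APOE33 against WT microglia (adjusted p = 0.0749) and of Clock for the KO difference between cell types (adjusted p = 0.126).

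The number of clock genes called moved by over 1.5 times, or away from 0, in these 6 comparisons. Between APOE44 and APOE33 astrocytes, 1 was called, against 0, with all 22 libraries, with no sex term and with DESeq2, and 0 to 1 with a library left out. Between APOE44 and APOE33 microglia, 1 was called with all 22 libraries, 2 with DESeq2, 3 without APOE33 replicates 1 to 3, and 0 to 1 with a library left out. For KO against APOE33, 7 were called in microglia without APOE33 replicates 4 to 6, and 5 to 8 in astrocytes with a library left out. For the APOE44 difference between cell types, 0 were called with no filter, 2 with no sex term, 4 with DESeq2, 5 without APOE33 microglia replicates 1 to 3, and 0 to 3 with a library left out. For the KO difference between cell types it was 2 to 4 with a library left out. In the other 10 comparisons the count stayed within 1.5 times. With a library left out it was 8 to 9 for KO against APOE44 and 8 to 10 for KO against WT in astrocytes, 6 to 7 there for APOE44 and for APOE33 against WT, and in microglia 4 to 6 for KO against APOE44, 4 to 6 for KO, 5 to 7 for APOE44 and 5 to 8 for APOE33 against WT.

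All-gene calls moved by over 1.5 times in a few fits. DESeq2 called 323 genes in astrocytes and 408 in microglia between APOE44 and APOE33, and all 22 libraries gave 229 and 224. Between APOE44 and APOE33 microglia 579 genes were called without APOE33 replicates 1 to 3. With a library left out, calls for KO against APOE33 astrocytes were 1836 (without KO replicate 1) to 3688. Those for APOE44 against APOE33 were 85 to 126 in astrocytes and 81 to 191 in microglia. The APOE44 difference between cell types called 64 genes, 38 with the block, 363 with DESeq2, 372 without APOE33 microglia replicates 1 to 3, 427 without replicates 4 to 6 and 40 to 403 with a library left out.

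Signs that turned without APOE33 microglia replicates 1 to 3 were those of Clock between APOE44 and APOE33 (−0.0746), of Clock (−0.0644), Per1 (0.203) and Nr1d2 (−0.166) between KO and APOE33, of Clock between APOE33 and WT (0.0185), and of Nr1d2 for the KO difference between cell types (−0.0121). Without replicates 4 to 6 they were those of Nr1d1 (0.162) and Nr1d2 (0.211) between APOE44 and APOE33, of Arntl (0.102) and Nr1d1 (−0.147) between APOE33 and WT, of Nr1d1 (0.179) and Nr1d2 (0.145) for the APOE44 difference between cell types and of Per1 (−0.138) for the KO difference. With library totals they were Cry2 between APOE33 and WT astrocytes (−0.0205), Clock in KO microglia against APOE33 (−0.0225) and against APOE44 (−0.0556), Nr1d1 between APOE44 and WT microglia (0.00478) and Arntl between WT microglia and WT astrocytes (−0.0965). Nr1d1 between APOE44 and WT microglia also turned with DESeq2 size factors (0.000167) and with no filter (0.0170).

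With a library left out, the log2 difference between APOE44 and APOE33 astrocytes ran from −0.0434 to 0.0384 for Per1, −0.0243 to 0.0273 for Cry1 and −0.0140 to 0.0840 for Nr1d1. Between APOE44 and APOE33 microglia it ran from −0.0167 to 0.0881 for Clock, −0.161 to 0.0480 for Nr1d1 and −0.199 to 0.0371 for Nr1d2. Between KO and APOE33 microglia it ran from −0.00993 to 0.118 for Clock and −0.0406 to 0.243 for Nr1d2, and between KO and APOE44 microglia from −0.0107 to 0.0487 for Clock. Between APOE33 and WT microglia it ran from −0.0634 to 0.0219 for Arntl and −0.0313 to 0.149 for Nr1d1, and between APOE44 and WT microglia from −0.112 to 0.0965 for Nr1d1 and −0.00822 to 0.109 for Dbp. For the difference between cell types it ran from −0.186 to 0.0218 for Nr1d1 with APOE44 and −0.0612 to 0.205 for Per2 with KO.

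Among the correlations with Arntl, those of Nr1d1 and Dbp in astrocytes kept their sign throughout. In the 6 WT astrocyte libraries Clock (0.0647), Per1 (0.417), Per3 (−0.289) and Cry1 (−0.664) had the other sign, and Clock also did without the 2 farthest libraries (0.0272). With a library left out, r in astrocytes ran from −0.253 to 0.0691 for Clock, −0.137 to 0.161 for Per3 and −0.0772 to 0.210 for Cry1. In microglia, where the planned correlation over all 22 libraries mixes the APOE33 sets and passed for none of 9 genes, the sign turned for Cry2 with DESeq2 size factors (0.00509) and in the WT libraries (0.265), with −0.141 to 0.106 as the range with a library left out, and for Per3 in the WT libraries (0.00615).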
